A study of Rattus norvegicus with 9 samples.

Results

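Livers of rats given diethylnitrosamine (DEN) together with Pien-Tze-Huang (PZH) were compared with livers of normal control rats, over all genes, to measure what still set the PZH-treated liver apart from normal liver. The comparison took 6 of the 9 rats of the series by the names of their count columns, rats G27, G28 and G42 for DEN plus PZH and rats N1, N3 and N12 for the normal control group, each rat being an animal and a library of its own. All were male Sprague-Dawley rats, and the tissue was liver. By the study's description, the DEN plus PZH group had 0.01% DEN injected into the peritoneum once a week for 16 weeks. This group also received PZH, a patented Chinese herbal and animal medicine, whereas the normal control rats ate a normal diet and are labelled as untreated. The study used more than one dose of PZH and more than one time of collection, and neither is given for the sequenced rats in the sources used here. How many weekly DEN doses each sequenced rat had received is therefore not known. The rats were outbred and the model is chemical, so p-values rest on the spread between separate animals. Values of the DEN model rats M13, M17 and M24 are set beside some results, as a description only, because the 3 comparisons among the groups share rats. In the labels the treatment of these rats also reads PZH, and they were taken as DEN without PZH from their titles and the study's description of its groups.

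DEN is activated by hepatocyte cytochrome P450 enzymes to a compound that alkylates DNA, and repeated doses kill hepatocytes, scar the liver and give rise to foci of altered hepatocytes that can grow into hepatocellular carcinoma. Such preneoplastic hepatocytes in the rat are classically recognised by the placental form of glutathione S-transferase and by gamma-glutamyl transferase, enzymes that normal adult hepatocytes hardly make. Many of the same detoxification genes are targets of the transcription factor Nrf2, which is freed from its inhibitor Keap1 by electrophiles and oxidants and binds antioxidant response elements. Injured rat liver also grows strings of bile-duct-like progenitor cells, called a ductular reaction, and its stellate cells become collagen-secreting myofibroblasts.

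The deposited values are read counts per gene, to which the quasi-likelihood test of edgeR was applied after a filter that left 13348 of 32883 genes. A gene was called when its absolute log2 fold change exceeded 2 and its unadjusted P was under 0.001, the thresholds of the study. By this rule 310 genes (2.32%) were called, 288 higher (2.16%) and 22 lower (0.165%) in DEN plus PZH rats than in normal rats. Their largest Benjamini-Hochberg adjusted p was 0.028, and in all 310 the 3 rats of one group lay beyond the 3 of the other, which held for 24% of all genes tested. Without the fold threshold, an adjusted p under 0.05 was reached by 696 genes (5.21%), by 543 that were higher (4.07%) and by 153 that were lower (1.15%), so genes above normal outnumbered genes below normal by either rule. Values for single rats are library-size-normalised counts (CPM) after scaling by trimmed mean of M-values (TMM), and 3 counts, the floor used for genes that were not detected, correspond to 0.13 to 0.249 CPM in these 6 libraries. A fold above the floor is the mean of the DEN plus PZH rats over the mean floor of the normal rats. Its "at least" bounds the ratio of group means, and single rats can lie below it.

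The 288 higher genes had a median log2 fold change of 3.36, or 3.06 when the 62 of them whose 3 normal rats held no more than 3 counts each were set to their lower bound. Their median level was 0.75 CPM in normal rats and 7.19 CPM in DEN plus PZH rats, beside 18.6 CPM in DEN model rats, and 103 of them averaged under 5 CPM in DEN plus PZH rats. For the same genes the median log2 fold change of the DEN model group against normal was 4.72, and that of DEN plus PZH against the DEN model was -1.26. The 22 lower genes had a median log2 fold change of -2.49, beside -2.98 for the DEN model against normal. In bulk liver, fewer cells of a type and less RNA per cell cannot be told apart. By type, 283 of the higher genes and 19 of the lower ones were protein coding.

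Total counts ran from 14922973 to 16412520 in 5 of the 6 libraries and reached 27161496 in rat G27, and no pair of libraries held the same values. The hepatocyte list was the check of the tissue: all 10 of its markers were tested, none was called, and their summed level was 143000 to 181000 CPM in DEN plus PZH rats and 171000 to 182000 CPM in normal rats. Markers of kidney, pancreas and muscle were near 0, with a sum of 2.28 to 3.03 CPM in DEN plus PZH rats, 4.16 to 11.6 CPM in normal rats, and 8 of the 14 found in the deposited table at 0 in all 6. The rats did not sort by group in every respect. The 13 mRNAs encoded by the mitochondrial genome took 10.5% of the counts in N3, 10.9% in G28 and 13.2% in G42, against 4.89% in N1, 5.89% in N12 and 7.63% in G27. Across the tested genes, which are not independent replicates, rat G27 had a Spearman correlation of 0.96 with N12 and of 0.938 with its group mate G42. With the mitochondrial share as a covariate, an alternative added after the data were seen, 185 genes were called, of which 149 were among the 310.

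Many genes of detoxification and of the preneoplastic hepatocyte were above normal. Of 21 tested markers of enzyme-altered hepatocytes and oncofetal liver, 11 were called higher and none lower, beside 2.16% and 0.165% of all genes, and the list's median log2 fold change was 2.04 against -0.02 over all genes. The DEN model median of this list was 3.85 above normal. Of 24 tested Nrf2 targets, 6 were called higher and 14 had an adjusted p under 0.05, all of them higher, with a median log2 fold change of 1.37 beside 1.99 in the DEN model. The 14 fell to 5 with the mitochondrial share as a covariate or without rat N12, to 6 without G28 or N1 and to 7 without G42, while the median stayed between 1.16 and 1.62.

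**Figure D1:**
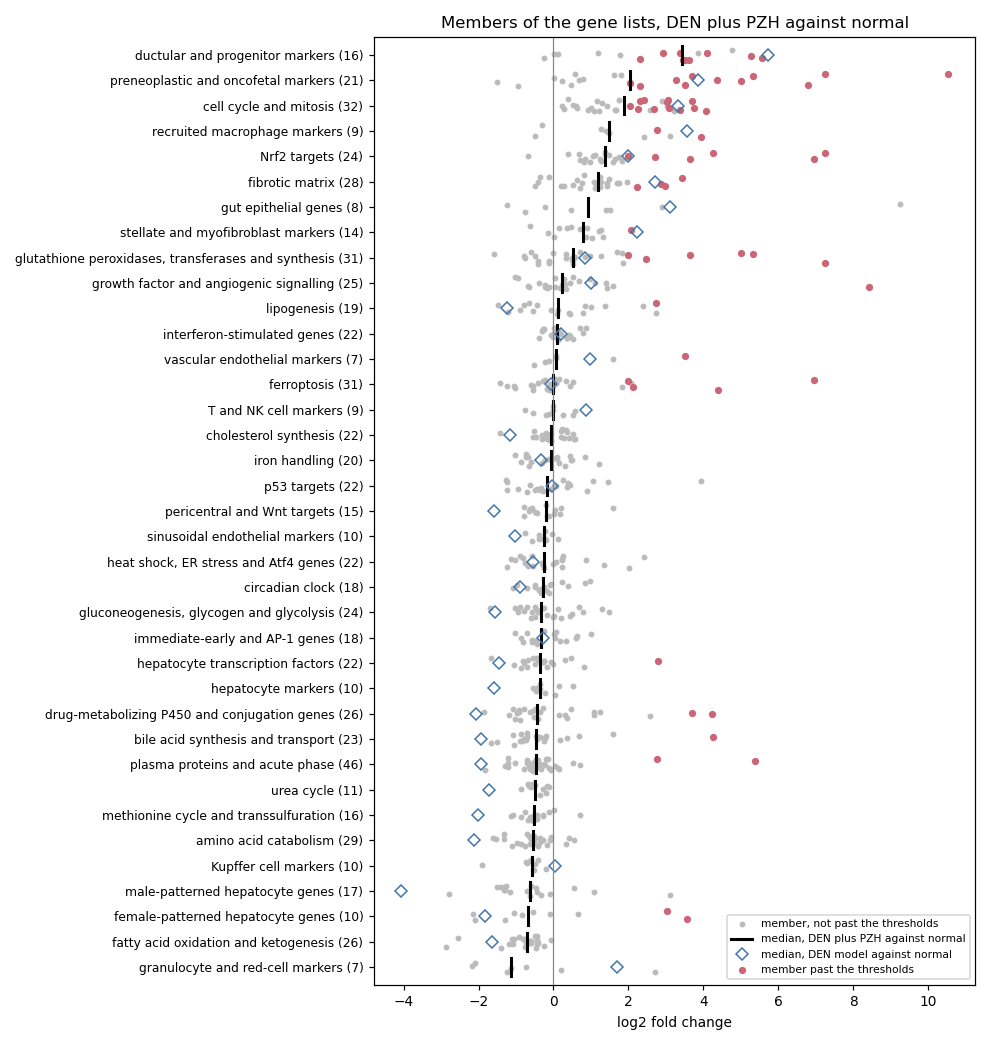
Log2 fold change of each tested member of the gene lists, DEN plus PZH against normal (points, red where the gene was called), with the list's median (black bar) and the median of the DEN model against normal (blue diamond), and the number of members tested in parentheses. Ductular, preneoplastic, cell cycle, macrophage, Nrf2 and matrix lists lie right of 0 with medians from 1.18 to 3.42, and the diamonds of the metabolic lists lie further left than their black bars.

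The proximal promoters of 4 of these genes are shown because they hold, close to the start, the letters that Nrf2 is known to bind. The 250 bases before the start of each gene (RefSeq, build GRCr8) were searched on both strands for TGACNNNGC, the core of the antioxidant response element, which can overlap the AP-1 site TGACTCA. Of the 6 called Nrf2 targets 5 had a promoter in the table, and 3 of these (60%) held the core, beside 10.1% of all 33469 promoters and 15.6% of the 192 promoters matched among all higher genes. Gstp1 is from the list of enzyme-altered and oncofetal markers, where 3 of 10 matched promoters (30%) held it. The Nrf2 list was made of known targets, so its share cannot test the part of Nrf2 in these data. The capitals mark the core, and letters reading GC first lie on the opposite strand:
Gstp1, chr1:210769718-210769806, minus strand: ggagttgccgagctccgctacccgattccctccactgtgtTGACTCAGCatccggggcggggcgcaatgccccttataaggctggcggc
Gpx2, chr6:101230034-101230086, minus strand: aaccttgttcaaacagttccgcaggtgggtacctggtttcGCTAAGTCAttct
Gsta3, chr9:31154932-31154988, plus strand: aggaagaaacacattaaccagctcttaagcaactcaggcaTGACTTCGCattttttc
Gclm, chr2:213031923-213032011, plus strand: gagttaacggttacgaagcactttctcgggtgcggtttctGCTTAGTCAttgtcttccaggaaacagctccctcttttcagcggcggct
The core lay 61 to 53 bases before the start in Gstp1, where the letters also spell the AP-1 site, 13 to 5 in Gpx2, 17 to 9 in Gsta3 and 172 to 164 in Gclm. A match describes the letters in this window and is not evidence of binding.

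Gstp1, the placental glutathione S-transferase (chromosome 1, 219291679 to 219294147 in the deposited table, whose build is not given in the sources used here), measured 255, 752 and 725 CPM in rats G27, G28 and G42 and 14.7, 12.0 and 16.9 CPM in rats N1, N3 and N12. The DEN model rats held 1040 to 1510 CPM. Every DEN plus PZH rat was thus far above every normal rat, with a log2 fold change of 5.32 ± 0.45 (SE, adjusted p = 0.0021). Per length, Gstp1 had the highest mean level of the genes called higher, 698 ± 360 FPKM (SD, n = 3) against 14.8 ± 3.12 in normal liver. Ggt1, the gamma-glutamyl transferase that starts the breakdown of extracellular glutathione, was at 13.9, 21.3 and 25.2 CPM against 0.389, 1.33 and 0.152 CPM (log2 fold change 5.01 ± 0.60, adjusted p = 0.0044). Gpc3, a cell-surface proteoglycan of fetal liver and hepatocellular carcinoma, was at 14.3, 22.2 and 27.7 CPM against 0.933, 0.997 and 1.14 CPM (4.37 ± 0.35, adjusted p = 0.0018).

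Aldehyde and aldo-keto enzymes were also among the called members. Aldh3a1, an aldehyde dehydrogenase that normal liver lacks, had the highest fitted log2 fold change of all, at 25, 192 and 52.6 CPM in DEN plus PZH rats, with at most 2 counts in any normal rat. Its mean level was at least 380-fold higher than the floor of 3 counts per library, which rat G27 by itself did not reach. The fitted log2 fold change of 10.53 ± 1.18 (adjusted p = 0.0037) depends on the prior count. The DEN model rats held 59.9 to 147 CPM, a range inside that of the DEN plus PZH rats, and the log2 fold change between these groups was -0.15 (adjusted p = 0.90). Akr1b10, an aldo-keto reductase found in liver tumors, was at 85.8, 272 and 143 CPM against 2.88, 0.499 and 1.14 CPM in normal rats and 609 to 820 CPM in DEN model rats (6.79 ± 0.66, adjusted p = 0.0022). Akr7a3, the aflatoxin aldehyde reductase, was at 463, 476 and 642 CPM against 51.6, 22.4 and 47.8 CPM (3.71 ± 0.34, adjusted p = 0.0021), and its DEN model rats spanned 415 to 860 CPM. Aldh3a1 and Akr7a3 thus had overlapping ranges with and without PZH, whereas Akr1b10 did not.

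Afp, the alpha-fetoprotein used as a tumor marker in serum, was not among these genes. It was at 16.6, 20.0 and 15.7 CPM in DEN plus PZH rats against 14, 13.1 and 17.2 CPM in normal rats (log2 fold change 0.24, adjusted p = 0.63), and the 3 groups of values overlapped. Afp, chosen after its values were seen, reached 207 CPM in 1 DEN model rat and 14.1 CPM or less in the other two. Igf2bp3, a fetal mRNA-binding protein, was the member that fell, from 18.0, 31.9 and 43.5 CPM in normal rats to 9.91, 13 and 9.81 CPM (-1.52 ± 0.33, adjusted p = 0.033).

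The axis that the study examined runs from cystine import through glutathione synthesis to the peroxidase that removes lipid peroxides. Slc7a11, the cystine and glutamate exchanger that feeds glutathione synthesis, measured 5.97, 59.1 and 26.3 CPM in rats G27, G28 and G42 and 0, 0.166 and 0.531 CPM in rats N1, N3 and N12. The DEN model rats held 455, 67.4 and 506 CPM. Every DEN plus PZH rat was above every normal rat and below every DEN model rat, and rat G28 came close to the lowest DEN model rat. The log2 fold change against normal was 6.96 ± 1.05 (adjusted p = 0.0089), and that of DEN plus PZH against the DEN model was -3.46 ± 1.05 (adjusted p = 0.038, a threshold that 19.1% of the genes tested between these groups passed at 0.05).

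Gclm, the modifier subunit of the ligase that makes the first step of glutathione synthesis, was at 186, 528 and 513 CPM against 91.1, 106 and 108 CPM (log2 fold change 2.0 ± 0.38, adjusted p = 0.019), beside 526 to 572 CPM in the DEN model. Gclc, the catalytic subunit of the same ligase, was at 250, 791 and 833 CPM against 154, 208 and 161 CPM (1.84 ± 0.43, adjusted p = 0.042), beside 602 to 756 CPM in the DEN model. For both subunits rats G28 and G42 stood at the level of the DEN model rats, and rat G27 stood between these and normal. Against the DEN model the log2 fold change of Gclc was -0.11 (adjusted p = 0.88). Gpx4, the lipid peroxide peroxidase, was at 176, 163 and 122 CPM against 268, 182 and 245 CPM (-0.59 ± 0.21, adjusted p = 0.17). The difference did not pass the test, and its rats did not overlap, which held in this direction for 9.93% of all genes tested.

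A list of glutathione peroxidases, transferases and synthesis shares its called members Gstp1, Gclm, Gpx2 and Gsta3 with the lists above. Of its 31 tested genes 6 were called higher, and 10 were higher and 1 lower by adjusted p alone. The 6 fell to 4 without any of rats G28, G42, N1 and N12, and the 10 fell to 5 without G28, N1 or N12 and to 6 without G42. Gpx2, the peroxidase of gut epithelium, was at 9.13, 19 and 23.4 CPM against at most 0.156 CPM in normal rats, at least 72.4-fold above the floor (fitted log2 fold change 7.25 ± 0.64, adjusted p = 0.0021), and DEN model rats held 50.8 to 170 CPM. Gpx1, the abundant peroxidase of hepatocytes, moved the other way, from 1170, 1550 and 899 CPM in normal rats to 391, 450 and 381 CPM (-1.58 ± 0.26, adjusted p = 0.013). Gsta3, an alpha-class transferase, was at 59.2, 114 and 111 CPM against 5.99, 12.6 and 3.72 CPM (3.65 ± 0.48), and Gstt3, a theta-class one, at 503, 443 and 546 CPM against 45.0, 160 and 57.9 CPM (2.47 ± 0.47). Reads of these transferases could be shared among near-identical family members, which the sources do not address. Nqo1, the quinone reductase that is a standard readout of Nrf2, was at 157, 210 and 206 CPM against 24.8, 18.9 and 44.1 CPM (2.71 ± 0.32, adjusted p = 0.0041). Abcc3, an efflux pump for glutathione and bile acid conjugates, was at 50.4, 58.8 and 73.9 CPM against 2.65, 2.99 and 3.87 CPM (4.26 ± 0.27, adjusted p = 0.00089), the lowest adjusted p of the called Nrf2 targets. Hmox1, the heme oxygenase that Nrf2 also drives, did not go with them, at 56.2, 37.8 and 17.8 CPM against 61.5, 39.4 and 78.3 CPM (-0.68 ± 0.39, adjusted p = 0.40).

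**Figure D2:**
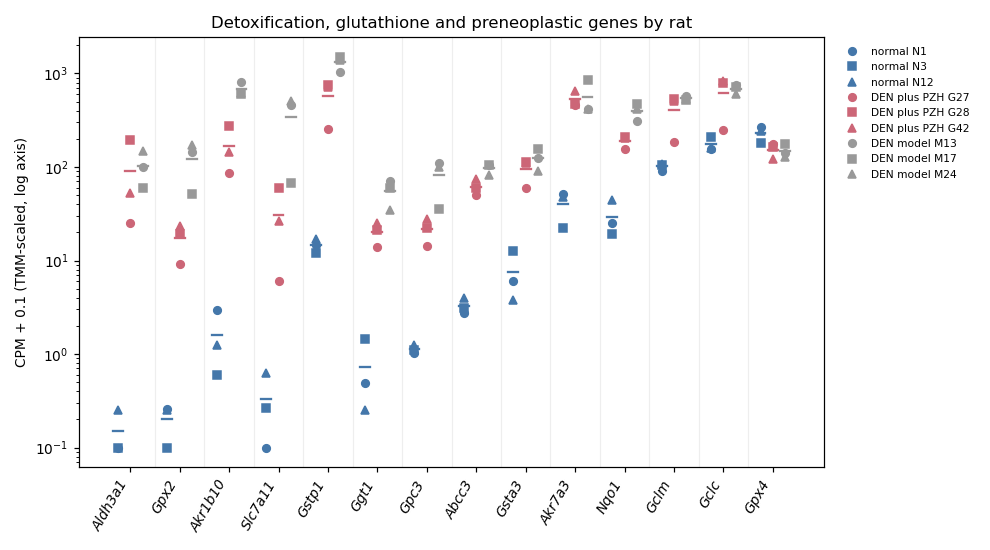
TMM-scaled CPM plus 0.1 (log axis) of 14 detoxification, glutathione and preneoplastic genes in each rat, with a bar at the group mean. For 13 of the genes every DEN plus PZH rat lies above every normal rat, rat G27 is the lowest of its group in all 13, and for Gpx4 the 3 lie below the normal rats.

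Of a ferroptosis list that includes Slc7a11, Gclc, Gclm and Gpx4, 31 members were tested and 4 called higher, and 5 were higher and 1 lower by adjusted p, with a median log2 fold change of 0.00. The 4 fell to 1 without rat G28, without N3 or with the mitochondrial share as a covariate, and to 2 without G42. Beside Slc7a11 and Gclm the called members were Ptgs2, the inducible cyclooxygenase, at 1.64, 3.31 and 3.88 CPM against 0, 0.166 and 0.228 CPM, and Prnp, the prion protein, at 15.2, 25.6 and 18.1 CPM against 4.82, 3.24 and 5.39 CPM. Acsl1, a fatty acyl-CoA synthetase chosen after its values were seen, was the lower one, at 2430, 2330 and 1720 CPM against 3960, 4480 and 4930 CPM (-1.05 ± 0.24, adjusted p = 0.043). Alox15, the lipoxygenase that oxidises membrane lipids, was at 0.346, 0.345 and 0.988 CPM against 2.02, 0.166 and 2.28 CPM in normal rats (-1.42, adjusted p = 0.41), beside 5.39 to 154 CPM in the DEN model. None of 20 tested genes of iron handling passed either rule.

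Cell cycle genes stayed above normal as a group. All 32 tested members had a positive log2 fold change, 12 were called higher and 16 had an adjusted p under 0.05, and the list's median was 1.89 beside 3.33 in the DEN model. Most called members act in chromosome segregation and cell division, and their levels were low in every normal rat. Cdk1, the kinase that drives entry into mitosis, was at 3.59, 8.91 and 9.03 CPM against 0.778, 0.332 and 0.531 CPM (log2 fold change 3.69 ± 0.51, adjusted p = 0.0066), beside 9.28 to 13.4 CPM in the DEN model. Plk1, the polo-like mitotic kinase, was at 2.81, 2.62 and 3.32 CPM against 0.389, 0.0831 and 0.152 CPM (3.75 ± 0.56, adjusted p = 0.0085). Top2a, the topoisomerase that untangles replicated DNA, was at 9.26, 26.4 and 28.7 CPM against 1.79, 3.24 and 2.51 CPM (3.09 ± 0.47, adjusted p = 0.0095). Mki67, the proliferation antigen, was at 11.6, 26.4 and 26.2 CPM against 2.1, 2.41 and 3.27 CPM (3.04 ± 0.39, adjusted p = 0.0050), beside 44.8 to 57.8 CPM in the DEN model. Nusap1, Bub1b, Prc1 and Kif20a, which serve the spindle, its checkpoint and the final cut between daughter cells, had log2 fold changes of 4.08, 3.38, 3.05 and 2.68.

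Rat G27 was the lowest of the DEN plus PZH rats for all of the called members except Plk1. Mcm7, a subunit of the replicative helicase that acts earlier in the cycle, was at 17.6, 20.5 and 11.6 CPM against 16.9, 11.1 and 12.8 CPM (0.28, adjusted p = 0.65), and its groups overlapped. The number of called members was 8 to 15 when 1 rat was left out and fell to 3 with the mitochondrial share as a covariate, while the list's median stayed between 1.33 and 2.1 in every alternative.

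A second promoter motif is shown for these genes, TTTGAA, the cell cycle homology region through which late cell cycle genes are repressed in resting cells. It was found in 5 of the 10 matched promoters of called members (50%) and in 16.2% of all promoters, whereas the E2F letters TTTCCCGC were in none of the 10 and in 0.813% of all. The list was made of known cell cycle genes, so these shares cannot test such repression in these data. The capitals mark the region on either strand in a pair of them:
Cdk1, chr20:19265181-19265292, plus strand: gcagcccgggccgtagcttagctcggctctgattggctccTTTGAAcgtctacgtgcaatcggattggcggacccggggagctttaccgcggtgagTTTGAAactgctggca
Top2a, chr10:84473094-84473155, minus strand: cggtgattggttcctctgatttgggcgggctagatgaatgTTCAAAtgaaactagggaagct
In Cdk1 the letters occurred at 72 to 67 and at 16 to 11 bases before the start, and in Top2a at 22 to 17.

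Ductular and progenitor markers had the highest median of all lists, 3.42, beside 5.74 in the DEN model. Of 16 tested, 9 were called higher, none was lower by either rule, and 12 had an adjusted p under 0.05. Cftr, the chloride channel of bile duct epithelium, was at 6.97, 21.4 and 14.3 CPM against 0.311, 0.249 and 0.304 CPM (log2 fold change 5.58 ± 0.54, adjusted p = 0.0022), beside 34.1 to 42.3 CPM in the DEN model. Sox9, a transcription factor of ducts and progenitors, was at 3.20, 5.94 and 5.57 CPM against 0.622, 0.166 and 0.531 CPM (3.45 ± 0.52, adjusted p = 0.0087). Krt19, the keratin that defines bile duct cells, was at 11.6, 19.1 and 15 CPM against 2.33, 1.33 and 0.683 CPM (3.39 ± 0.43, adjusted p = 0.0050), while the DEN model rats held 51.2, 335 and 369 CPM. Krt19 was therefore raised in every DEN plus PZH rat and still far from the DEN model level.

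Cldn4, a tight junction protein, was at 2.16, 2.07 and 2.82 CPM with at most 2 counts in each normal rat, at least 9.93-fold above the floor. Muc1, Itgb6, Spp1 and Cd24, a mucin, an epithelial integrin, osteopontin and a surface antigen of progenitors, were also called, with log2 fold changes of 3.62, 4.10, 2.93 and 3.52. Anxa3 was the lowest member, at 42.5, 53 and 38.7 CPM against 39.2, 56.1 and 64.3 CPM (-0.26, adjusted p = 0.64), although the DEN model rats held 93.8 to 189 CPM. Of the members 5 were called without rat G28, without rat N1 or with the mitochondrial share as a covariate.

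Matrix genes of the scar were raised by less. Of 28 tested, 4 were called higher and 14 had an adjusted p under 0.05, all higher, with a median log2 fold change of 1.18 beside 2.70 in the DEN model. Col1a1, the main chain of fibrillar collagen in scars, was at 94.6, 118 and 93.4 CPM against 14.5, 5.57 and 19.1 CPM (2.97 ± 0.38, adjusted p = 0.0051), beside 209 to 1060 CPM in the DEN model. Loxl1, an enzyme that cross-links elastic fibres, was at 11.9, 7.87 and 5.57 CPM against 1.32, 0.582 and 1.52 CPM (2.88 ± 0.43, adjusted p = 0.0087). Mmp2, the gelatinase of activated stellate cells, was at 43.3, 46.8 and 35.4 CPM against 9.41, 4.90 and 12.7 CPM (2.22 ± 0.32, adjusted p = 0.0073). Vcan, a scar proteoglycan, was at least 8.71-fold above the floor, at 1.95, 2.76 and 1.48 CPM. Without rat G28 or without rat N1, 4 members had an adjusted p under 0.05, and 9 without N12.

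Within the matrix list rat G27 was not the one nearest to normal. Its median difference from the normal mean was 1.31 on the log2(CPM + 1) scale, against 1.11 in G28 and 0.80 in G42, whereas in the cell cycle list G27 was the nearest to normal (0.81, against 1.55 and 1.52). Fn1, fibronectin, which hepatocytes also secrete into plasma, was not raised, at 3520, 2700 and 2270 CPM against 4590, 4290 and 2960 CPM (-0.49, adjusted p = 0.40). Of 14 stellate and myofibroblast markers 12 had a positive log2 fold change, with a median of 0.80 beside 2.23 in the DEN model. By adjusted p under 0.05, 4 were higher and none lower, and the 4 fell to 1 without rat G28 or N1. Only 1 was called, Cygb, the globin of stellate cells, at 31.6, 34.8 and 41.0 CPM against 10.6, 4.57 and 10.4 CPM (2.08 ± 0.31, adjusted p = 0.0087). It was not called without rat G42 or without N3, where its log2 fold change was 1.96 and 1.79. Acta2, the smooth muscle actin that marks myofibroblasts, chosen after its values were seen, was at 10.6, 6.90 and 2.54 CPM against 2.57, 2.0 and 6.30 CPM (0.88, adjusted p = 0.46), and its rats overlapped, beside 23.8 to 86.8 CPM in the DEN model.

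Most markers of recruited macrophages were also above normal. Of 9 recruited macrophage markers 2 were called and 7 had an adjusted p under 0.05, all higher, with a median of 1.49 and a summed level of 235 to 327 CPM against 122 to 189 CPM in normal rats. Without rat G28 or N1 the 7 fell to 2, without G42 or N3 to 3 and without N12 to 4. Mmp12, the elastase of macrophages, was at 9.52, 15.7 and 16.2 CPM against 0.233, 0.914 and 1.52 CPM (3.94 ± 0.53, adjusted p = 0.0060). Cd9, a surface tetraspanin, was at 10.2, 26.0 and 27.4 CPM against 3.89, 2.83 and 2.66 CPM (2.76 ± 0.41, adjusted p = 0.0084). Cd68, a lysosomal protein of macrophages, and Adgre1, the F4/80 antigen, were the members below 0, with log2 fold changes of -0.49 (adjusted p = 0.40) and -0.31 (adjusted p = 0.58). None of 10 Kupffer cell markers passed either rule, all 10 had a negative log2 fold change (median -0.57), and their sums overlapped, 328 to 954 CPM against 713 to 1400 CPM. The part of these cells in the matrix values was not tested.

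No T, NK or B cell marker passed either rule, and no marker of sinusoidal endothelium did. Of 7 vascular endothelial markers 1 was called and 2 were higher by adjusted p, with a median of 0.06 and 3 members below 0, among them Plvap, a protein of vessel pores (-0.52, adjusted p = 0.41). Cd34, which capillaries carry and healthy sinusoids lack, was the called one, at 3.38, 2.97 and 4.73 CPM against 0.467, 0.332 and 0.152 CPM (3.51 ± 0.51, adjusted p = 0.0077), and Vwf, the clotting factor of endothelium, had a log2 fold change of 1.60 (adjusted p = 0.027). Aplnr, the apelin receptor of sprouting vessels, is not one of these 7 and comes from a list of growth factor and angiogenic signalling. It had no count in any normal rat and was at 1.64, 2.76 and 4.23 CPM in DEN plus PZH rats. These values were at least 12.2-fold above the floor, beside 14.8 to 58.6 CPM in the DEN model. Aplnr was the only call among the 25 tested genes of its list, where 3 were higher and 1 lower by adjusted p. In the fit 16 of the 25 lay above 0 and 9 below, and their median was 0.24. Hba-a2, a hemoglobin chain that comes with blood in the tissue, passed as lower by adjusted p under 1 of its near-identical copies. This copy was at 127, 62.8 and 48.1 CPM against 354, 133 and 543 CPM (-2.1 ± 0.51, adjusted p = 0.049). Another copy fell as much but narrowly missed that threshold (-2.17 ± 0.53, adjusted p = 0.05 after rounding), and its rats overlapped. How reads were split among the copies is uncertain.

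**Figure D3:**
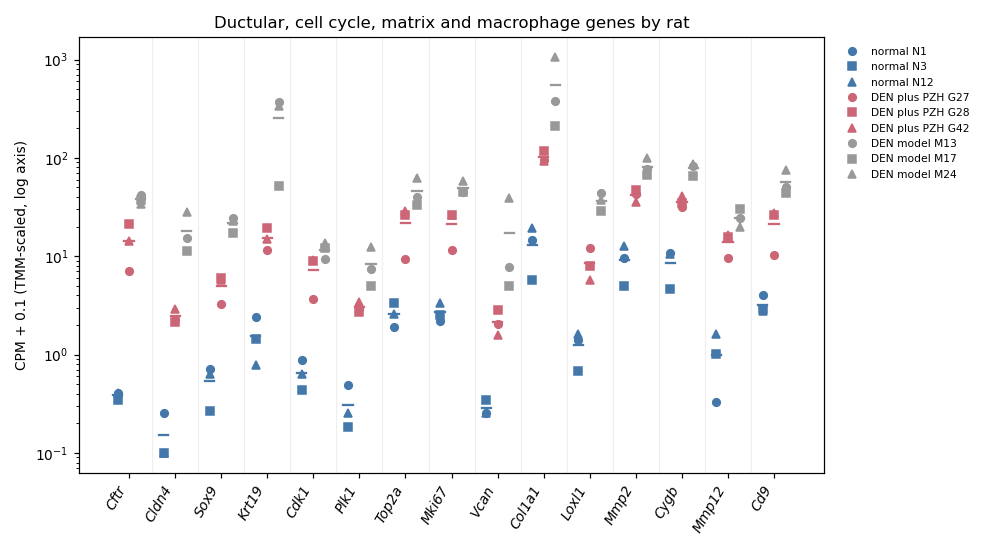
TMM-scaled CPM plus 0.1 (log axis) of 4 ductular, 4 cell cycle, 5 matrix and stellate and 2 macrophage genes in each rat, with a bar at the group mean. Each DEN plus PZH rat lies above each normal rat for all 15 genes, and the DEN model means lie above those of DEN plus PZH.

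Liver function genes differed far less from normal than in the DEN model. The median log2 fold change was -0.45 for 26 genes of P450 and conjugating enzymes, -0.46 for 23 of bile acid handling, -0.50 for 11 of the urea cycle, -0.55 for 29 of amino acid breakdown and -0.47 for 46 of plasma proteins. The matching DEN model medians were -2.07, -1.94, -1.73, -2.12 and -1.93. None of their members was called lower, beside only 0.165% of all genes. Called higher were 2 of the P450 and conjugating genes, 1 of bile acid handling and 2 of plasma proteins, beside 2.16% of all genes. Members still leaned to one side: all 11 urea cycle genes and all 26 genes of fatty acid oxidation and ketogenesis (median -0.70) were below normal in the fit. Scaling by library totals alone moved the median of all genes from -0.02 to 0.21, and 9 of the 11 and 25 of the 26 were then still below 0. Of 22 cholesterol synthesis genes none passed either rule, and their median of -0.06 changed sign with the scaling.

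Some metabolic genes fell by adjusted p without being called. Of 23 tested genes of bile acid handling, 3 were lower by adjusted p and 2 were higher, Abcc3 and Abcc4 (log2 fold changes 4.26 and 1.58). In bile acid synthesis Cyp8b1, the sterol hydroxylase that sets the cholic acid share, was at 575, 386 and 427 CPM against 1450, 897 and 1640 CPM (-1.52 ± 0.27, adjusted p = 0.016). Nr0b2, the repressor that bile acids induce, was at 16.5, 24.0 and 12.9 CPM against 56.6, 42 and 70.3 CPM (-1.66 ± 0.28, adjusted p = 0.013). Nr1h4, the bile acid receptor upstream of Nr0b2 and chosen after its values were seen, was at 66.6, 59.0 and 47.1 CPM against 103, 93.5 and 101 CPM (-0.79 ± 0.19, adjusted p = 0.045). In all 3 genes the DEN plus PZH rats lay below every normal rat.

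G6pc, the phosphatase that releases glucose, was at 395, 765 and 407 CPM against 1120, 1600 and 2330 CPM (-1.69 ± 0.36, adjusted p = 0.032). Elovl5, an elongase of polyunsaturated fatty acids, was at 135, 147 and 125 CPM against 355, 374 and 398 CPM (-1.47 ± 0.18, adjusted p = 0.0049). Hal, the histidine lyase, was at 135, 146 and 119 CPM against 330, 478 and 402 CPM (-1.61 ± 0.22, adjusted p = 0.0066). The groups did not overlap for these enzymes, and the rats of a group lay close together for Elovl5 and Hal but not for G6pc. Of 26 fatty acid oxidation genes 4 had an adjusted p under 0.05, Cyp4a1 (-1.20), the fatty acid omega-hydroxylase, and 3 chosen after their values were seen, Cpt1a (-1.05), which gates entry into mitochondria, Ehhadh (-1.07), a peroxisomal enzyme, and Pdk4 (-1.40), a kinase that spares glucose. None of the 26 had such a p without rat G28, G42, N1 or N12, and 12 had it without G27. Cebpb, a transcription factor of the stressed and fasting liver, was at 109, 145 and 111 CPM against 334, 295 and 539 CPM (-1.68 ± 0.27, adjusted p = 0.010), beside 92.8 to 106 CPM in the DEN model.

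Genes that differ between male and female rat liver were examined because growth hormone and liver injury both move them. Of 17 genes typical of males none was called, 1 was higher and 1 lower by adjusted p, and the median was -0.63 beside -4.06 in the DEN model. Cish, an inhibitor of cytokine signalling that growth hormone induces, was the higher one, at 68.3, 9.87 and 12.8 CPM against 4.20, 3.24 and 3.04 CPM (3.11 ± 0.70, adjusted p = 0.039). Mup4, a major urinary protein, was the lower one under 1 of its 2 identifiers, at 82.5, 55.5 and 50.6 CPM against 139, 97.2 and 183 CPM (-1.15 ± 0.27, adjusted p = 0.045), where the DEN model rats held at most 0.125 CPM. Under the other identifier it was at 605, 154 and 98.9 CPM against 512, 973 and 932 CPM, where rat G27 lay within the normal range and the difference did not pass (-1.52 ± 0.61, adjusted p = 0.22). Mup genes are near copies of each other and the split of reads among them is uncertain. Of 10 genes typical of females 2 were called higher, 1 was lower by adjusted p and 7 were below 0 in the fit, with a median of -0.69 beside -1.84 in the DEN model. Cyp2c12, a steroid disulfate hydroxylase and 1 of the 2, was at 366, 542 and 792 CPM against 72.9, 31.2 and 109 CPM (3.02 ± 0.46, adjusted p = 0.0092), and its DEN model rats spanned 202 to 960 CPM. A1bg, a plasma protein and the other called one, was at 3.29, 4.70 and 10.8 CPM against 0.933, 0.332 and 0.304 CPM (3.56 ± 0.63, adjusted p = 0.016). Cyp2c7, another female-leaning P450, was the lower one, at 1830, 1110 and 1140 CPM against 4320, 9900 and 2860 CPM (-2.09 ± 0.48, adjusted p = 0.041).

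A few genes stood out above normal although most members of their lists did not. Below 0 in the fit were 39 of 46 plasma proteins and 16 of 26 genes of P450 and conjugating enzymes. A2m, the alpha-2-macroglobulin of the rat acute phase, was at 96.0, 128 and 39.0 CPM against 1.48, 2.49 and 2.28 CPM (5.38 ± 0.48, adjusted p = 0.0021), beside 19.1 to 77.3 CPM in the DEN model. Cyp2c24, a P450 whose reads may be shared with close relatives, was at 23.9, 43.1 and 64.6 CPM against 2.18, 4.07 and 0.759 CPM (4.22 ± 0.59, adjusted p = 0.0067), and Cyp1a1, the P450 induced by planar aromatic compounds, at 15.5, 7.53 and 13.3 CPM against 1.71, 0.914 and 0.152 CPM (3.70 ± 0.61, adjusted p = 0.012).

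Several of the genes highest above normal are best known from other tissues. Nefl, the light neurofilament of neurons, was at 5.84, 7.53 and 16.1 CPM with no count in any normal rat, at least 41.5-fold above the floor, beside 17.1 to 35.3 CPM in the DEN model. Vsx1, a homeobox gene of the retina, was at 2.51, 7.59 and 8.96 CPM with no count in any normal rat, at least 26.8-fold above the floor, and the DEN model rats held 5.72 to 9.25 CPM. Klhl14, a ubiquitin ligase adaptor, was at 1.95, 7.46 and 6.42 CPM, at least 22.3-fold above the floor. Ddit4l2 and Dnaaf1 were at least 30.0-fold and 86.2-fold above the floor, the latter a factor that assembles the motor arms of cilia. All 5 genes were lowest in rat G27.

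Of the 22 lower genes those with at least 5 CPM in normal rats were led by Ces2e, a carboxylesterase of liver (chromosome 19, 85606 to 100424 in the deposited table), at 0.995, 0.621 and 0.847 CPM in DEN plus PZH rats against 43.3, 75.5 and 30.4 CPM in normal rats (log2 fold change -5.90 ± 0.44, adjusted p = 0.0018). The DEN model rats held 0.299, 1.44 and 53.6 CPM, so 1 of them was inside the normal range and the other two were as low as the DEN plus PZH rats. Prss32, a serine protease, had the same arrangement, at 0.736, 0.345 and 0.282 CPM against 7.47, 6.82 and 4.78 CPM (-3.72 ± 0.45, adjusted p = 0.0047), with rat M24 at 7.44 CPM and the other DEN model rats at 0.249 CPM or less. Fam210a, a mitochondrial protein, was at 14.3, 18.9 and 21.4 CPM against 90.7, 152 and 106 CPM (-2.68 ± 0.28, adjusted p = 0.0027), with rat M24 at 74.2 CPM and the others at 9.96 and 13.9 CPM. In all 3 genes the same DEN model rat stood near the normal rats.

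Zfp354a, a zinc finger repressor of liver and kidney, was at 40.3, 45.7 and 31.4 CPM against 169, 218 and 288 CPM (-2.53 ± 0.26, adjusted p = 0.0025), beside 4.80 to 6.63 CPM in the DEN model. Dab1, an adaptor of reelin signalling, was at 5.11, 6.35 and 3.53 CPM against 32.9, 23.6 and 25.7 CPM (-2.45 ± 0.27, adjusted p = 0.0036), beside 1.84 to 4.96 CPM in the DEN model. Hdc, which makes histamine from histidine, was at 3.68, 1.93 and 0.917 CPM against 13.2, 16.9 and 8.28 CPM (-2.54 ± 0.49, adjusted p = 0.020). Phf19, Tor3a and Mtmr7 had log2 fold changes of -2.87, -2.17 and -2.16. Of these genes Zfp354a and Mtmr7 lay between normal and the DEN model without overlap with either, whereas Dab1, Hdc, Phf19 and Tor3a overlapped the DEN model.

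**Figure D4:**
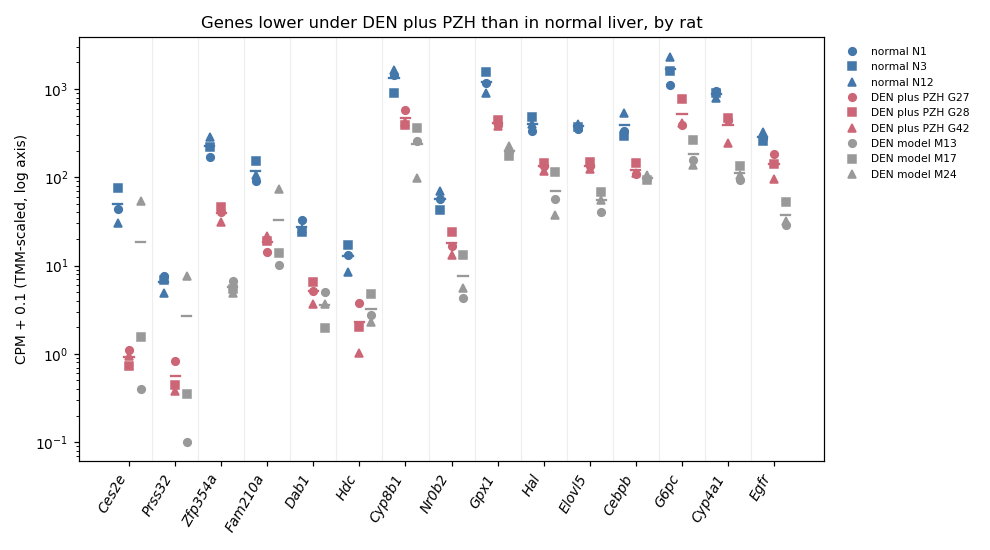
TMM-scaled CPM plus 0.1 (log axis) of 15 genes that were lower in DEN plus PZH rats than in normal rats by adjusted p, with a bar at the group mean. The 3 DEN plus PZH rats lie below the 3 normal rats for every gene, and for Ces2e, Prss32 and Fam210a rat M24 lies near the normal rats.

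The 3 DEN plus PZH rats did not differ from normal to the same degree. Of the 288 higher genes, 208 (72.2%) were nearest to normal in rat G27, 30 in G28 and 50 in G42, and the median difference from the normal mean on the log2(CPM + 1) scale was 1.65, 2.21 and 2.20 in these rats, beside 2.98 to 3.40 in the DEN model rats. Of the 22 lower genes 15 (68.2%) were nearest to normal in G27. Fam111a, a protease that guards replication forks, spread most among the called genes with an official symbol, at 57.9, 103 and 4.73 CPM against 0.233, 0.249 and 0.531 CPM in normal rats, and here G42 was lowest. Mmd, a membrane protein of macrophages and other cells, was at 6.49, 28.1 and 60.1 CPM against 1.32, 2.49 and 1.82 CPM. Serpinb1a, an inhibitor of neutrophil elastase, was at 24.1, 16.8 and 122 CPM against 1.48, 1.91 and 3.04 CPM. G27 was also the deepest library, and after thinning it to the depth of the next deepest one 320 genes were called, 299 of them among the 310. Of the 3 rats G27 had the lowest mitochondrial share, and the part of that share in the spread was not tested.

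**Figure D5:**
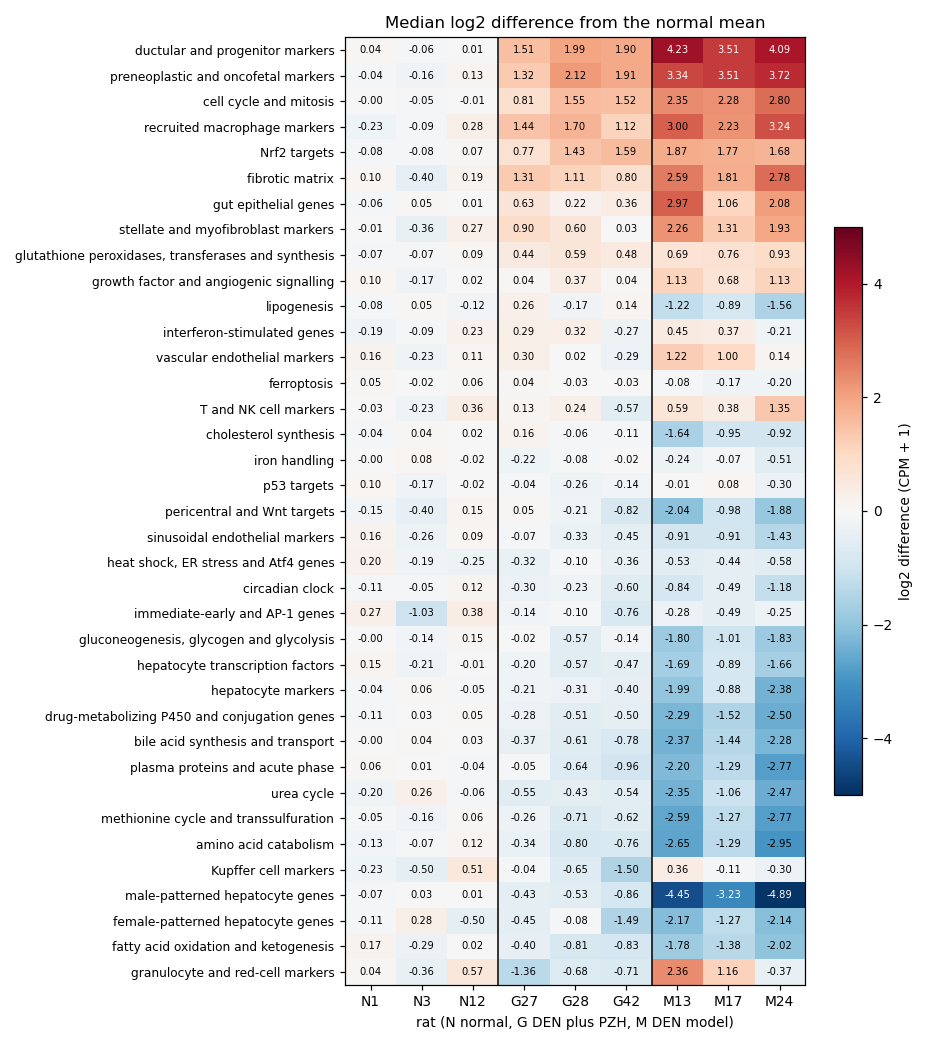
Median over the tested members of each list of the difference from the normal mean on the log2(CPM + 1) scale, in each rat. In the ductular list the DEN plus PZH rats stand at 1.51 to 1.99 and the DEN model rats at 3.51 to 4.23, and in the male-patterned list at -0.86 to -0.43 and -4.89 to -3.23.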

How the data were processed

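Liver RNA of 9 male rats was sequenced, 1 library per rat, and 6 of the libraries enter this comparison. Raw read counts per gene were deposited by the authors together with FPKM values, which are normalized for gene length and library size. The submitters' processing notes name fastp, HISAT2 2.1.0, StringTie 1.3.3b and edgeR 3.30.3, and the genome build, the counting tool and the strand setting are not given in the sources used here. The deposited table also holds the authors' group means, fold changes, P and Q values of their own comparisons, and these were not used. FPKM served only for levels per length.

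Counts of the 6 rats were filtered with filterByExpr, which left 13348 of 32883 genes, scaled by TMM and fitted with edgeR 4.0.16 in R 4.3.3 (glmQLFit and glmQLFTest, two-sided, group as the only term). Genes were called at an absolute log2 fold change over 2 and P under 0.001, and Benjamini-Hochberg adjusted p-values cover all genes tested. On simulated counts for this comparison over 12638 genes, 199 of 200 genes given a simulated log2 change of 3 were called in the right direction, and 3 unchanged genes were called. The changed genes were drawn only from genes well above the floor in normal rats. The simulation therefore does not show how often genes near 0 in normal rats are called rightly. DESeq2 1.42.0, library totals, other filters, a lower fold threshold, a joint fit of the 3 groups, a thinned library, leaving out each rat and the mitochondrial share as a covariate were tried, the last one chosen after seeing the data. Totals of 14922973 to 27161496 counts make 3 counts the floor for a gene that was not detected, and this covers counting error only.

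The members, lists and motifs were chosen with earlier results of these data known. Named genes were the 10 in each direction with the largest change among called genes that had an official symbol, groups without overlap and a mean of at least 5 CPM in the higher group, the called members (up to 8) and the 2 highest and 2 lowest members of each list, the study's axis of Slc7a11, Gclc, Gclm and Gpx4, and the 5 called genes that varied most among DEN plus PZH rats. Others are said to have been chosen after their values were seen. Promoter sequences are those of RefSeq for build GRCr8, matched by symbol. Some genes that meet this rule are not reported here.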

Additional observations from a re-analysis of the deposited data

How the results depend on the processing

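None of the 310 called genes that were tested changed sign in any alternative fit. These genes were picked for a large change on the same counts and had groups without overlap. Most of the fits could therefore hardly reverse a sign. DESeq2 called 38 genes lower and gave 1320 an adjusted p under 0.05, against 22 and 696. Scaling by library totals called 13 lower. Requiring at least 10 counts in every rat called 124 genes, 110 higher and 14 lower, and left 340 with an adjusted p under 0.05, since genes near 0 in normal rats were then not tested. The mitochondrial share as a covariate, added after seeing the data, called 185 genes, 168 of them higher. An absolute log2 fold change over 1 called 79 genes lower. With 1 rat left out, 187 to 405 genes were called, 169 to 355 higher and 13 to 50 lower, and 207 to 1326 had an adjusted p under 0.05. Without G28 or without N1 the called genes were 190 and 187, and the lower genes were 50 without G27 and 13 without G28. The genes with an adjusted p under 0.05 were 1326 without G27, 212 without G28, 361 without G42, 207 without N1, 335 without N12 and 432 without N3. Apart from the fits with fewer rats or genes, the cause of these changes was not tested. No paired analysis was possible because the groups share no rat number. With 3 rats a group, and 103 of the higher genes under 5 CPM, small differences were not detectable at this depth.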

Other observations

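Several genes known from mast cells, all chosen after their values were seen and forming no list, differed from normal in DEN plus PZH rats, and others did not pass. Ms4a2, a chain of the high-affinity IgE receptor, was at 2.38, 6.77 and 5.43 CPM in rats G27, G28 and G42 and at 0 to 0.416 CPM in normal rats (log2 fold change 4.29, edgeR quasi-likelihood adjusted p = 0.017). Mcpt1, a mast cell protease, was at 6.36, 20.9 and 2.82 CPM against at most 0.700 CPM (4.57, adjusted p = 0.027), and reads may be shared with related proteases. Cpa3, a carboxypeptidase of mast cell granules, was at 5.37, 27.3 and 7.62 CPM and did not pass (3.95, adjusted p = 0.053). Mcpt8, another protease of this family (2.35, adjusted p = 0.18), and Kit, the receptor that mast cells depend on (0.58, adjusted p = 0.25), did not pass either. Hdc, which mast cells also use to make histamine, was lower than normal in the same rats.

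Serpina7, the thyroxine-binding globulin, also chosen after its values were seen, was at 31.2, 36.0 and 29.2 CPM in DEN plus PZH rats against 9.72, 5.40 and 4.33 CPM in normal rats, and at 13.9 to 18.7 CPM in the DEN model, below every DEN plus PZH rat (log2 fold change against the DEN model 1.02, adjusted p = 0.014).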
